A study of Mus musculus with 9 samples.

Results

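The genes described here are 10 regulators of the step from G1 to S phase of the cell cycle: the D-type cyclins Ccnd1, Ccnd2 and Ccnd3, the E-type cyclins Ccne1 and Ccne2, the kinase inhibitors Cdkn1b and Cdkn2c, the pocket proteins Rb1 and Rbl1, and the transcription factor E2f5. They were chosen by name, as genes controlling a step that slows in cells without miRNAs, and every row of the value table annotated with one of these symbols was taken. A row is a transcript cluster, a set of probes designed against exons and summarised together. Some rows of the table carry several gene symbols or none. The 10 genes had 11 transcript clusters, of 35557 in the table and 23002 tested, since Cdkn1b had 2 clusters. None of the 11 clusters carried a second gene symbol.

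Messenger RNA was measured on 9 Affymetrix mouse gene 1.0 ST arrays from mouse embryonic stem (ES) cells of 3 genotypes, with 3 arrays for each. The genotypes were wild-type (WT, the line v6.5), Dgcr8 knockout (KO) and Dicer KO, with no other treatment. The Dgcr8 KO allele lacks exon 3, which leaves an early stop codon in its messenger RNA, and the part deleted from Dicer1 is not stated in the methods. Dgcr8 is the RNA-binding subunit of the Microprocessor, the nuclear complex that cuts primary miRNA transcripts, and Dicer cuts the resulting hairpins into mature miRNAs, so that both mutants lack canonical miRNAs. Cells of each genotype were grown on plates in triplicate, described as biological replicates in the methods. No separate lines or clones of a genotype are named, so p-values measure the spread between plates and the effect of a deletion cannot be told apart from other differences between the lines.

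D-type cyclins bind the kinases Cdk4 and Cdk6, and E-type cyclins bind Cdk2. These kinases phosphorylate the pocket proteins, which otherwise hold E2F transcription factors and repress genes for DNA synthesis, while inhibitors of the Cip/Kip and INK4 families restrain the kinases. ES cells have a short G1 phase with high Cdk2 activity and largely phosphorylated pocket proteins, and ES cells without miRNAs are known to collect in G1.

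The miRNA families best known for acting on this network differ in the seed, bases 2 to 8 of the mature miRNA, with which they pair to messenger RNAs. Mature sequences of 4 seed families are printed here from RefSeq (GRCm38.p6), 5′ to 3′, with the seed in capitals, to show which sequences both enzymes normally produce. The family of miR-294, with the seed of miR-302b, is the most abundant in ES cells and is known to act on Rbl2, Lats2 and Cdkn1a. The seed of miR-17 is shifted by a single base from it. In other cells miR-16 is known to act on Ccnd1, Ccnd3 and Ccne1, and let-7 on Ccnd2, Cdk6 and Cdc25a. No mature miRNA was measured on these arrays.
mmu-miR-294-3p: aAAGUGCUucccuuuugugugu
mmu-miR-302b-3p: uAAGUGCUuccauguuuuaguag
mmu-miR-17-5p: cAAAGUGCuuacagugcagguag
mmu-miR-16-5p: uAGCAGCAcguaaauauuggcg
mmu-let-7a-5p: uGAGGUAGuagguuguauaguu
In the RefSeq table, 5 mature miRNAs share the seed AAGUGCU, 7 share AAAGUGC, 10 share AGCAGCA and 11 share GAGGUAG. The miR-294 sequence lies at chr7:3220691-3220712 on the plus strand, and the let-7a sequence printed at chr13:48538239-48538260 on the minus strand.

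The labels were checked with the deleted genes. Dgcr8 had log2 levels of 9.76, 9.81 and 9.82 in WT cells against 8.74, 8.96 and 8.86 in its own knockout. Dicer1 had 10.18, 10.18 and 10.23 in WT cells against 8.33, 8.43 and 8.32 in its own. Each deleted gene was thus lower on every array of its mutant, with a log2 ratio of -0.94 for Dgcr8 and -1.84 for Dicer1. Array medians lay between 6.49 and 6.56, and arrays of one genotype correlated at 0.996 to 0.998 over the transcripts tested. The ES cell markers Pou5f1, Sox2 and Nanog were at mean log2 levels of 11.2 to 12.8 in all genotypes. Levels were not equal between genotypes: of the list of 10 markers described below, 7 were called higher and 1 lower in each mutant. WT replicate 1 and Dgcr8 KO replicate 2 stood at opposite ends of the first principal component of the replicates' deviations, which held 40.8% of their variance. In a bulk sample, fewer cells of a type and less RNA per cell cannot be told apart.

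Without Dgcr8, 8 of the 11 member clusters were called higher than in WT and 1 was called lower, at a limma adjusted p under 0.05. Over all transcripts tested, 15.7% were called higher and 17.3% lower in that comparison. In Dicer KO, 6 member clusters were called higher and 1 lower, where 17.8% of all transcripts were called higher and 19.1% lower. The members had a median log2 ratio of 0.28 without Dgcr8 and of 0.37 without Dicer, beside medians of -0.01 and -0.06 over all transcripts. Both comparisons use the same WT arrays, so the values of the mutants are given side by side and are not independent. Between the mutants, 3 member clusters were called higher in Dgcr8 KO and 3 lower, where 11.2% and 13.4% of all transcripts were called.

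**Figure D1:**
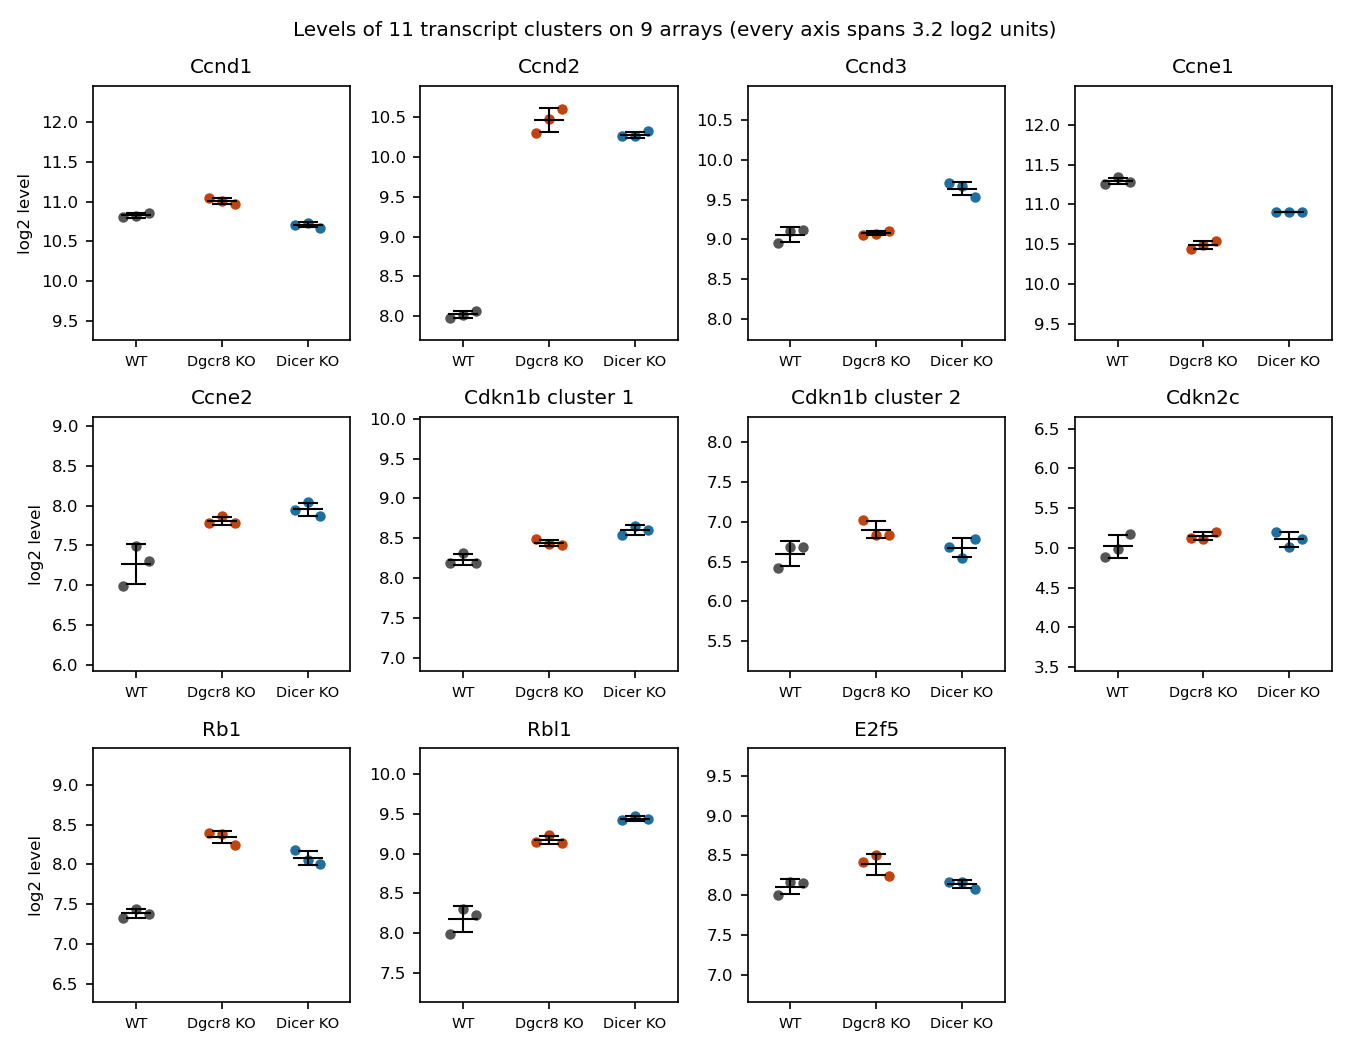
Deposited log2 level of the 11 member clusters on each of the 9 arrays, one panel per cluster, with a point per array and a bar at the mean of each genotype with its SD. Ccnd2 lies near 8.02 in WT and above 10 on every mutant array, Rb1 and Rbl1 are also higher on every mutant array, and Ccne1 is lower.

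Among the D-type cyclins, Ccnd2 (chr6:127125162-127152188, GRCm38.p6) had the largest log2 ratios of the 11 member clusters. WT cells had log2 levels of 7.98, 8.02 and 8.07, cells without Dgcr8 had 10.31, 10.48 and 10.61, and cells without Dicer had 10.26, 10.26 and 10.33. Every mutant array stood above every WT array, and the mutants overlapped. Ccnd2 was 5.45-fold higher in Dgcr8 KO (log2 ratio 2.45, 95% interval 2.28 to 2.61, limma adjusted p = 3.6e-08) and 4.79-fold higher in Dicer KO (log2 ratio 2.26, interval 2.10 to 2.43, adjusted p = 3.35e-08). The difference between the mutants was 0.19 on the log2 scale, with an interval of 0.02 to 0.35, and was not called (adjusted p = 0.099). Without Dgcr8 KO replicate 1 it was 0.26 and was called (adjusted p = 0.0183). A second quantile normalization gave 0.27 (adjusted p = 0.0237) and cyclic loess 0.24 (adjusted p = 0.042).

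Ccnd1 (chr7:144929931-144939831), the D-type cyclin best known as a target of growth factor signalling, was higher without Dgcr8 by a small amount. Its log2 level was 10.81, 10.82 and 10.86 in WT cells, against 11.04, 11.01 and 10.97 without Dgcr8 and 10.71, 10.73 and 10.67 without Dicer. The genotypes did not overlap, with Dgcr8 KO highest and Dicer KO lowest. The log2 ratio in Dgcr8 KO was 0.18 (interval 0.08 to 0.28, limma adjusted p = 0.011), a 1.13-fold difference. In Dicer KO the ratio was -0.12 (interval -0.22 to -0.02), which was not called at an adjusted p of 0.0615. The last ratio was called under 4 alternatives, with adjusted p from 0.0113 to 0.0392. The direct difference, Dgcr8 KO minus Dicer KO, was 0.30 (interval 0.20 to 0.40, adjusted p = 0.00106).

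Ccnd3 (chr17:47505051-47599689), a D-type cyclin with overlapping functions, was higher in Dicer KO. Log2 levels were 8.95, 9.11 and 9.12 in WT cells, against 9.05, 9.07 and 9.10 without Dgcr8 and 9.71, 9.67 and 9.54 without Dicer. The WT and Dgcr8 KO arrays overlapped, and all Dicer KO arrays lay above them. In Dicer KO the log2 ratio was 0.58 (interval 0.43 to 0.72, limma adjusted p = 7.26e-05), or 1.49-fold. In Dgcr8 KO it was 0.01 (interval -0.13 to 0.16, adjusted p = 0.896). The direct difference between the mutants was -0.56 (interval -0.71 to -0.42, adjusted p = 0.000205).

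The E-type cyclins went in opposite directions from each other. Ccne1 (chr7:38097984-38107490), which activates Cdk2 at the entry into S phase, was the only member called lower than WT. Its log2 level was 11.26, 11.34 and 11.28 in WT cells, against 10.44, 10.49 and 10.54 without Dgcr8 and 10.91 on every array without Dicer. The genotypes did not overlap, with WT highest, Dicer KO between and Dgcr8 KO lowest. In Dgcr8 KO, Ccne1 stood at 57.4% of WT (log2 ratio -0.80, interval -0.91 to -0.70, limma adjusted p = 1.33e-06). In Dicer KO it stood at 76.8% (log2 ratio -0.38, interval -0.48 to -0.28, adjusted p = 0.000122). The direct difference was -0.42 (interval -0.52 to -0.32, adjusted p = 0.000158). The value of Ccne1 was identical on the 3 Dicer KO arrays. Over all 35557 clusters of the table, tested or not, 620 were identical within Dicer KO, 459 within WT and 486 within Dgcr8 KO. The SD of 0 of Ccne1 in Dicer KO is therefore no measure of its spread. The fit pools the spread of the genotypes, so these identical values also enter the intervals and p-values of Ccne1 in every contrast.

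Ccne2 (chr4:11190433-11204779), the other E-type cyclin, was higher in both mutants. The log2 level was 6.99, 7.49 and 7.31 in WT cells, against 7.78, 7.87 and 7.78 without Dgcr8 and 7.95, 8.04 and 7.87 without Dicer. All mutant arrays lay above all WT arrays, and WT replicate 1 was the lowest. The SD was 0.252 for WT, 0.0512 for Dgcr8 KO and 0.0805 for Dicer KO (n = 3 each). The log2 ratio was 0.54 in Dgcr8 KO (interval 0.30 to 0.79, limma adjusted p = 0.00372) and 0.69 in Dicer KO (interval 0.44 to 0.94, adjusted p = 0.000805). The mutants differed by -0.15 with an interval of -0.40 to 0.10, which was not called (adjusted p = 0.369).

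**Figure D2:**
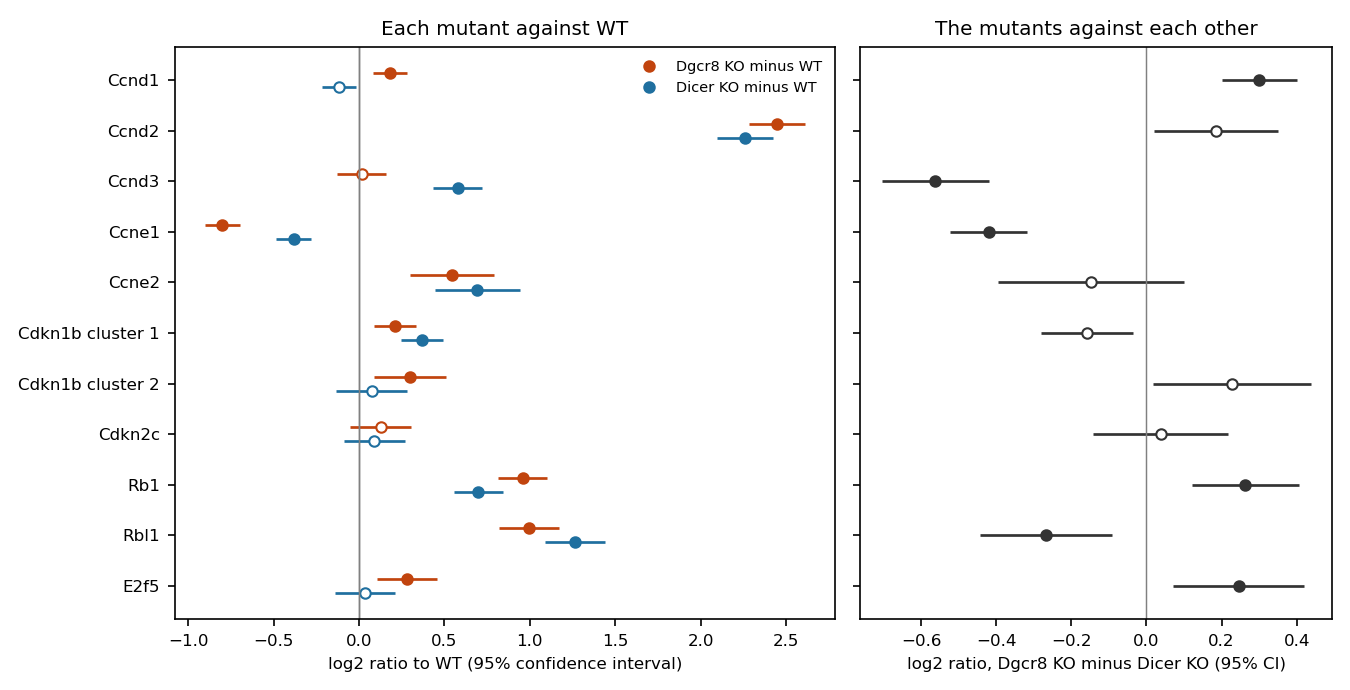
log2 ratio of each member cluster with its 95% limma confidence interval, for each mutant against WT in one panel and for Dgcr8 KO minus Dicer KO in the other, filled where called and open where not. Against WT, Ccnd2 stands at 2.45 and 2.26 and Ccne1 at -0.80 and -0.38. In the direct contrast the called values run from -0.56 for Ccnd3 to 0.30 for Ccnd1.

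Of the inhibitors among the members, Cdkn1b (chr6:134920401-134925525), the Cip/Kip inhibitor of Cdk2 complexes, had 2 clusters that gave different results. On its first cluster the log2 level was 8.19, 8.31 and 8.19 in WT cells, against 8.49, 8.43 and 8.41 without Dgcr8 and 8.54, 8.66 and 8.60 without Dicer. The genotypes did not overlap there, with WT lowest and Dicer KO highest. The log2 ratio was 0.21 in Dgcr8 KO (limma adjusted p = 0.0139) and 0.37 in Dicer KO (interval 0.25 to 0.49, adjusted p = 0.000481). The former call ended when WT replicate 3 (adjusted p = 0.0504) or Dgcr8 KO replicate 1 (adjusted p = 0.0539) was left out. The direct difference of -0.16 was not called (adjusted p = 0.0618). It was called without the dimmest 25% of transcripts (adjusted p = 0.0414), after centring on the median (-0.21, adjusted p = 0.0269) and with trended, robust variance (adjusted p = 0.0493).

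On the second Cdkn1b cluster the log2 level was 6.42, 6.69 and 6.69 in WT cells, against 7.02, 6.84 and 6.84 without Dgcr8 and 6.69, 6.55 and 6.78 without Dicer. Dgcr8 KO lay above WT on every array, and Dicer KO overlapped WT. The log2 ratio in Dgcr8 KO was 0.30 (limma adjusted p = 0.0333). That call was lost without WT replicate 1, Dgcr8 KO replicate 1, Dgcr8 KO replicate 3 or Dicer KO replicate 1, where the adjusted p lay between 0.0508 and 0.12. The ratio in Dicer KO was 0.07, with an interval of -0.14 to 0.28 (adjusted p = 0.58). The direct difference of 0.23 was not called (adjusted p = 0.111), though SAM called it and array weights gave an adjusted p of 0.0421.

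Cdkn2c (chr4:109660876-109666756), an INK4 inhibitor of Cdk4 and Cdk6, was not called in either mutant. The log2 level was 4.89, 4.99 and 5.17 in WT cells, against 5.12, 5.11 and 5.20 without Dgcr8 and 5.20, 5.01 and 5.11 without Dicer. The genotypes overlapped. The interval of the log2 ratio was -0.05 to 0.31 in Dgcr8 KO (limma adjusted p = 0.282) and -0.09 to 0.27 in Dicer KO (adjusted p = 0.421). The cluster was among the dimmest 25% of transcripts.

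Both pocket proteins were higher without either enzyme. Rb1 (chr14:73192858-73325951), the retinoblastoma protein, had a log2 level of 7.33, 7.44 and 7.38 in WT cells, against 8.40, 8.38 and 8.25 without Dgcr8 and 8.18, 8.06 and 8.0 without Dicer. All mutant arrays lay above all WT arrays, and all Dgcr8 KO arrays above all Dicer KO arrays. Rb1 was 1.94-fold higher in Dgcr8 KO (log2 ratio 0.96, SE 0.0636, limma adjusted p = 3.44e-06) and 1.62-fold higher in Dicer KO (log2 ratio 0.70, interval 0.55 to 0.84, adjusted p = 2.17e-05). The direct difference was 0.26 (interval 0.12 to 0.41, adjusted p = 0.0147). It was not called without Dgcr8 KO replicate 1, Dicer KO replicate 2 or Dicer KO replicate 3 (adjusted p from 0.0534 to 0.0576), nor after centring on the median (0.21, adjusted p = 0.0572).

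Rbl1 (chr2:157145893-157204534) is a pocket protein that binds E2f4 and E2f5. Its log2 level was 7.99, 8.31 and 8.23 in WT cells, against 9.15, 9.23 and 9.14 without Dgcr8 and 9.42, 9.47 and 9.44 without Dicer. The genotypes did not overlap, with WT lowest and Dicer KO highest. Rbl1 was 1.99-fold higher in Dgcr8 KO (SE 0.0775 on the log2 scale, limma adjusted p = 9.46e-06) and 2.40-fold higher in Dicer KO (log2 ratio 1.26, interval 1.09 to 1.44, adjusted p = 1.52e-06). The direct difference was -0.27 (interval -0.44 to -0.09, adjusted p = 0.0327). This call was lost without Dgcr8 KO replicate 1, Dgcr8 KO replicate 3 or any of the Dicer KO replicates (adjusted p from 0.0716 to 0.1), and over all rows of the table (adjusted p = 0.0593).

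E2f5 (chr3:14578602-14606309), a repressive E2F that works with the pocket proteins, was called higher in Dgcr8 KO. Its log2 level was 8.0, 8.17 and 8.15 in WT cells, against 8.41, 8.50 and 8.24 without Dgcr8 and 8.17, 8.17 and 8.08 without Dicer. The Dgcr8 KO arrays lay above the others, and WT and Dicer KO overlapped. The log2 ratio in Dgcr8 KO was 0.28 (limma adjusted p = 0.0193), and leaving out WT replicate 1, Dgcr8 KO replicate 1 or Dgcr8 KO replicate 2 ended the call (adjusted p from 0.0578 to 0.0654). In Dicer KO the ratio was 0.03, with an interval of -0.14 to 0.21 (adjusted p = 0.762). The direct difference of 0.25 (interval 0.07 to 0.42, adjusted p = 0.0453) was lost when any array except WT replicate 1 or Dgcr8 KO replicate 3 was left out (adjusted p from 0.0553 to 0.134). It was also lost after centring on the median (0.19, adjusted p = 0.139).

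The promoters of the members were searched for E2F words, since E2F factors and pocket proteins act through such sites. RefSeq windows of 300 bases, 250 before and 50 after a start, matched 5 of the 10 members (Ccnd3, Ccne1, Cdkn1b, Cdkn2c and Rbl1) with 7 windows. The words TTTCGCGC, TTTGGCGC, TTTCCCGC and TTTGCCGC were searched on both strands, and only the Rbl1 window among these held one. It held TTTCGCGC, on the strand of the gene, 18 to 11 bases before the start. Over all windows, 2.26% held a word. The 250 bases before the start of Rbl1 (chr2:157204535-157204784, minus strand, GRCm38.p6) are printed with the word in capitals, as the member promoter that held a match.
Rbl1 upstream: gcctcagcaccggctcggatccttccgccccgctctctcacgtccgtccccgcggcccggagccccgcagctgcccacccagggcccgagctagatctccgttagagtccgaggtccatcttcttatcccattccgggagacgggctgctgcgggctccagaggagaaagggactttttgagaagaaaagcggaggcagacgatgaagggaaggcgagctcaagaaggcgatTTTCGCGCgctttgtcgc
A match is a run of letters and not a measured binding site. By gene, 704 of 27025 held a word (2.6%), as did 10 of the 22 matched genes of the list of E2F targets described next.

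The other genes of the G1 to S step were taken from lists by role. For each list, the background is 15.7% of all transcripts called higher and 17.3% lower in Dgcr8 KO. In Dicer KO it is 17.8% and 19.1%. No set test was run, and counts near these shares are no result about a list. Among the other E2F and DP factors with Rbl2, a list of 12 clusters, 3 were called higher and 4 lower in Dgcr8 KO, and 2 higher and 6 lower in Dicer KO. The list's median log2 ratio was -0.08 and -0.17. Rbl2, the pocket protein closest to Rbl1, had a log2 level of 7.0, 6.93 and 7.04 in WT cells, against 8.17, 8.37 and 8.17 without Dgcr8 and 8.43, 8.35 and 8.44 without Dicer. It was 2.37-fold higher in Dgcr8 KO and 2.67-fold higher in Dicer KO (limma adjusted p = 8.96e-07 and 2.61e-07), so that all of the pocket protein genes were called higher in each mutant. E2f8, an E2F that represses transcription without a DP partner, was lower, with log2 ratios of -1.07 and -0.79. E2f4, the repressive E2F most like E2f5, was lower by -0.46 and -0.48. E2f1 was instead called higher, with a log2 ratio of 0.27 without Dgcr8 (limma adjusted p = 0.00391) and 0.20 without Dicer (adjusted p = 0.0177). Tfdp1, the DP partner of most E2Fs, was lower on both of its clusters, with ratios of -0.50 and -0.62 in Dgcr8 KO and of -0.62 and -0.71 in Dicer KO. Tfdp2, another DP partner, was higher in Dgcr8 KO (0.25) and lower in Dicer KO (-0.26), and the direct difference was 0.51 (adjusted p = 0.00112).

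Among the other CDK inhibitors, 5 clusters with values, 1 was called higher and 1 lower in Dgcr8 KO, and 2 higher and 1 lower in Dicer KO, at median log2 ratios of 0.10 and 0.16. The only cluster of Cdkn1a carried a second symbol and was not used. Cdkn1c, a Cip/Kip inhibitor related to Cdkn1b, had a log2 level of 8.93, 8.80 and 8.85 in WT cells, against 7.78, 7.59 and 7.47 without Dgcr8 and 7.74, 7.85 and 7.89 without Dicer. The mutant arrays lay below all WT arrays, at log2 ratios of -1.25 and -1.04 (limma adjusted p = 3.21e-06 and 8.1e-06). Cdkn2a, which encodes an INK4 inhibitor and an unrelated protein from an alternative frame, was higher by 0.45 and 0.62. Cdkn2d, another INK4 inhibitor, had a ratio of 0.34 in Dicer KO, which was called, and of 0.10 in Dgcr8 KO, which was not (adjusted p = 0.469).

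Of 9 clusters of the G1 kinases that the cyclins activate, with their activators, 2 were called higher and 2 lower in Dgcr8 KO, and 2 higher and 1 lower in Dicer KO, at median log2 ratios of -0.06 and -0.08. Cdk4 had ratios of 0.01 and -0.08 and was called in neither mutant. Cdk6 was higher in Dgcr8 KO by 0.38, while its ratio of 0.12 in Dicer KO was not called. The direct difference for Cdk6 was 0.25 (limma adjusted p = 0.0137). Cdk2, the partner of cyclin E, was higher in Dicer KO by 0.31, and its ratio of 0.15 in Dgcr8 KO was not called. Cdc25a, the phosphatase that activates Cdk2, was lower by -0.34 and -0.42. The 2 clusters of Cdk7, of the kinase that activates the others, disagreed: one was called higher in both mutants (0.30 and 0.15), and the other had ratios of -0.18 and -0.20 that were not called.

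**Figure D3:**
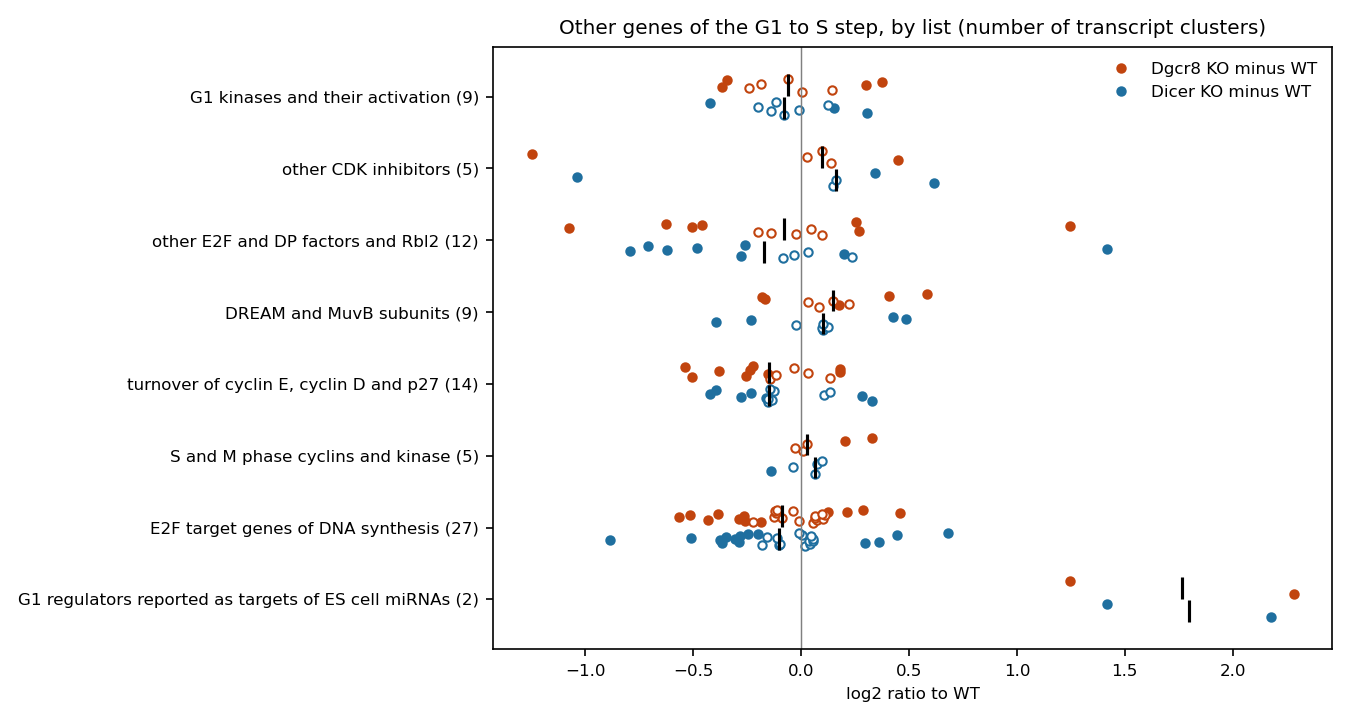
log2 ratio to WT of every transcript cluster of the lists of the G1 to S step, one row per list, with a point per cluster for each mutant (filled where called, open where not) and a black bar at the median. Most clusters lie within 1 unit of 0. Beyond it are Lats2 at 2.28 and 2.17 and Rbl2 at 1.25 and 1.42 on the higher side. On the lower side are Cdkn1c at -1.25 and -1.04 and, in Dgcr8 KO only, E2f8 at -1.07.

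Among 14 clusters of genes for the turnover of cyclin E, cyclin D and Cdkn1b protein, 2 were called higher and 7 lower in Dgcr8 KO, and 2 higher and 5 lower in Dicer KO. The median log2 ratio was -0.15 in each mutant. Cks1b, the cofactor with which the Skp2 ligase recognises Cdkn1b, was lower by -0.54 and -0.39. Skp2 itself was higher by 0.18 in Dgcr8 KO, and its ratio of 0.11 in Dicer KO was not called. Of 9 clusters of the DREAM and MuvB complex, which represses cell cycle genes together with Rbl1 and Rbl2, 3 were called higher and 2 lower in Dgcr8 KO, and 2 in each direction in Dicer KO, with medians of 0.15 and 0.10. Lin37 (0.58 and 0.42) and Lin54 (0.41 and 0.48), both subunits of the core, were higher. Mybl2, the activator that replaces the pocket protein on this core, was lower by -0.16 and -0.40.

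Genes of DNA synthesis that E2F factors are known to activate were called in both directions. Of 27 clusters, 4 were called higher and 8 lower in Dgcr8 KO, and 4 higher and 10 lower in Dicer KO, at median log2 ratios of -0.09 and -0.10. Dut, which removes dUTP, was lower by -0.57 and -0.88, and Orc1, of the origin recognition complex, by -0.52 and -0.51. Pola1, the catalytic subunit of DNA polymerase alpha, was higher by 0.28 and 0.68. Mcm7, a subunit of the replicative helicase, was higher in Dgcr8 KO by 0.46, and its ratio of 0.04 in Dicer KO was not called. Of 5 clusters of cyclins and the kinase of S and M phase, 2 were called higher and none lower in Dgcr8 KO, and none higher and 1 lower in Dicer KO, with medians of 0.03 and 0.06. Ccna2, the cyclin of S phase, had ratios of 0.03 and -0.04 that were not called, and Ccnb2, a mitotic cyclin, was higher in Dgcr8 KO by 0.33.

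The list of G1 regulators known as targets of the miR-294 family held 2 measured genes, Lats2 and the Rbl2 described above. Lats2, a kinase of the Hippo pathway, had a log2 level of 6.25, 6.81 and 6.43 in WT cells, against 8.84, 8.86 and 8.64 without Dgcr8 and 8.68, 8.67 and 8.66 without Dicer. Every mutant array stood above every WT array, 4.87-fold in Dgcr8 KO (limma adjusted p = 1.15e-06) and 4.52-fold in Dicer KO (adjusted p = 1.03e-06). Genes of this list were known targets in ES cells and are no independent sign of a direction.

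**Figure D4:**
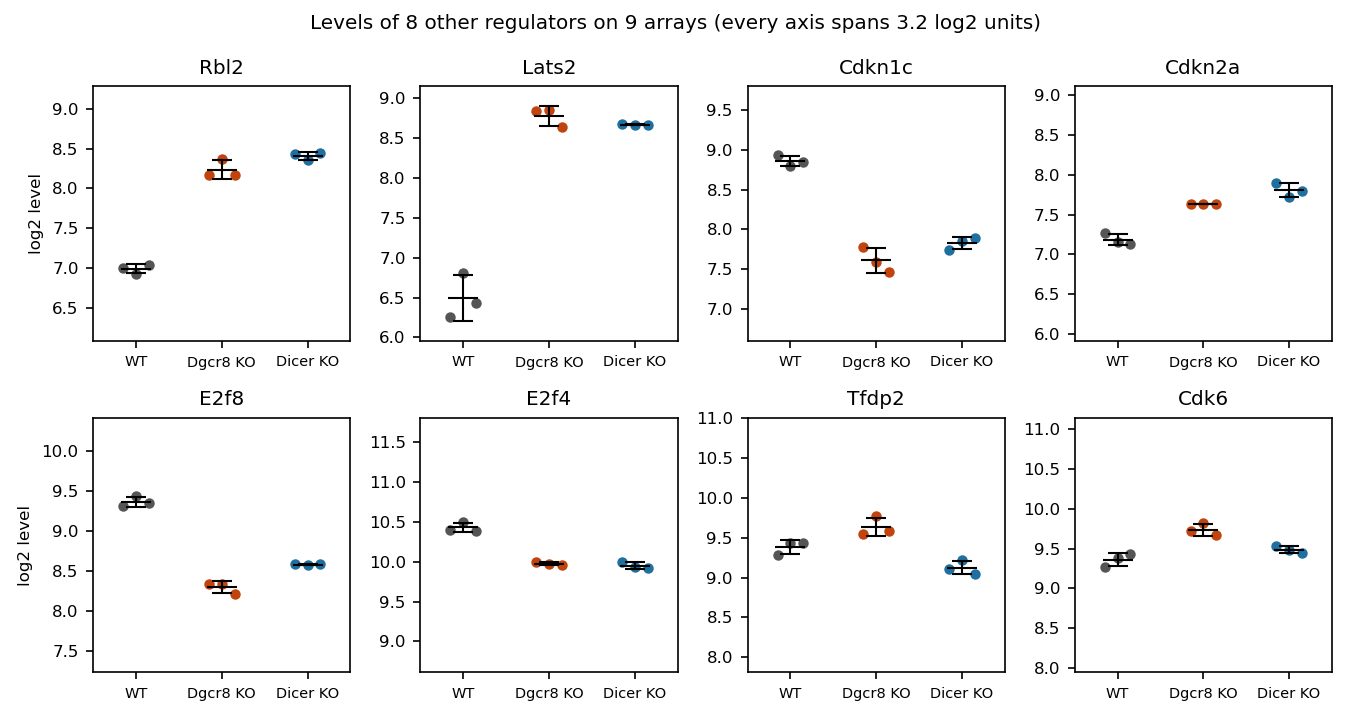
Deposited log2 level on each of the 9 arrays of genes of the network outside the members, one panel per gene, with a point per array and a bar at the mean of each genotype with its SD. Rbl2 and Lats2 are higher on every mutant array than on every WT array, and Cdkn1c is lower.

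Markers of other cell types that a culture of ES cells could hold moved with the genotype for some lists. The mean log2 level of the 10 ES cell markers was 11.2 to 11.27 over the WT arrays, 11.47 to 11.52 in Dgcr8 KO and 11.56 to 11.58 in Dicer KO, with 7 genes called higher and 1 lower in each mutant. For fibroblast and feeder cell markers (9 of 10 measured) it was 5.74 to 5.98, 5.68 to 5.87 and 5.69 to 5.82, with none called in Dgcr8 KO and 1 lower in Dicer KO. The trophoblast markers stood at 7.72 to 7.76 in WT, 7.13 to 7.24 in Dgcr8 KO and 7.57 to 7.62 in Dicer KO, with 4 of 8 called lower in Dgcr8 KO, and 1 higher and 3 lower in Dicer KO. Their largest ratios were those of Krt18 at -2.0 and -0.52. Krt8 was also lower, at -1.42 and -0.45. Without Dgcr8, Ascl2 (-0.41) and Cdx2 (-0.24) were called lower by less. Eomes, Tfap2c, Hand1 and Elf5 were not called there, at ratios from -0.16 to 0.03. The lower mean of this list without Dgcr8 thus came mostly from Krt18 and Krt8. The 10 clusters of primitive endoderm markers stood at 6.80 to 6.85, 6.54 to 6.67 and 6.51 to 6.55, with 2 called higher and 3 lower in Dgcr8 KO, and 1 higher and 3 lower in Dicer KO. Cubn (-1.26 and -1.46) and Lamb1 (-1.0 and -1.23) were lower and Sparc was higher, by 1.02 and 1.69. Gata4 was higher in Dgcr8 KO by 0.36, and its ratio of -0.17 in Dicer KO was not called. The 2 clusters of Dab2 disagreed: one was lower (-1.13 and -1.15), and the other, at 0.24 and -0.09, was not called. Mesoderm and neural markers (7 of 8 measured) stood at 6.89 to 7.0, 6.98 to 7.09 and 6.79 to 6.89, with 1 called in each direction in Dgcr8 KO, and 1 higher and 3 lower in Dicer KO. No marker on an array has a true 0, and the part of these shifts in the results on the members was not tested.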

How the data were processed

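Total RNA of 9 plates of ES cells was hybridised to Affymetrix mouse gene 1.0 ST arrays. The authors deposited normalized log2 values per transcript cluster. Their methods name RMA and the submitters' processing notes name GCRMA, so which was used, and its version, is not settled by the sources used here. Both summarise several probes on a relative scale, which allows no comparison of levels between genes. Folds of dim clusters may be compressed, to an extent that depends on the method used. The scanner files were not used here.

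Cluster symbols came from GEO's platform annotation: 21789 clusters had 1 symbol, 1621 several and 12147 none. Clusters without a symbol, 326 with miRNA genes only, 4 mitochondrial and 78 on chromosome Y were left out, leaving 23002. The values were fitted with limma 3.58.1 in R 4.3.3 (one mean per genotype, 6 residual degrees of freedom, eBayes, two-sided, Benjamini-Hochberg over 23002), and called at an adjusted p under 0.05. Precision is limited by 3 arrays per genotype. The code was tested on simulated data. SAM, the test named in the methods, was an alternative among 21 planned and 1 chosen after seeing the data. Positions and sequences came from RefSeq (GRCm38.p6), matched by symbol, and the build of the array annotation was not used.

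The members and lists were chosen with earlier results of these data known. Genes named are the members, Dgcr8 and Dicer1, and a choice of genes of the lists. Not every called gene of a list is named, and some of those named were not called. For members called in both mutants, the 2 clusters with the nearest pattern and a range of genotype means of at least 0.5 are also named. Markers were fixed lists. The sample titles do not say whether replicate numbers pair the samples, and the main fit did not pair them. Correlations of same-numbered deviations ran from -0.2 to 0.344. They were not compared with those of differently numbered arrays, so they do not settle whether pairs exist.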

Additional observations from a re-analysis of the deposited data

Results flagged for a closer look

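For 6 members the change from WT differed between the mutants by limma's test of the difference itself. As log2 differences, Dgcr8 KO minus Dicer KO, these were 0.30 for Ccnd1, -0.56 for Ccnd3, -0.42 for Ccne1, 0.26 for Rb1, -0.27 for Rbl1 and 0.25 for E2f5. The values of Ccne1 on the Dicer KO arrays were identical. The limma fit counts them in the pooled residual SD of Ccne1, 0.0351, which lies below its SD in WT (0.0404) and Dgcr8 KO (0.0454). Before intervals are computed, eBayes moves this SD toward a value shared by all transcripts, so they do not rest on it alone. The identical values still lower it, so the intervals and p-values of Ccne1 may be too small. By how much was not tested. No member cluster differed between the mutants by 1.5-fold. The differences of Rb1, Rbl1 and E2f5 lost their call when single arrays were left out, as given beside each.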

How the results depend on the processing

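Over all alternatives, the log2 ratios of the members gave 723 values in the 3 contrasts, of which 639 kept the side of the threshold and did not cross 0, 61 lost a call, 12 gained one and 11 changed sign. The 11 belong to ratios that were not called under any setting. Leaving out 1 array gave -0.04 to 0.05 for Ccnd3 in Dgcr8 KO, -0.02 to 0.14 for the second Cdkn1b cluster in Dicer KO, -0.02 to 0.07 for E2f5 in Dicer KO (each below 0 without WT replicate 1) and -0.01 to 0.09 for Cdkn2c between the mutants (below 0 without Dicer KO replicate 2). Array weights gave -0.03 for Ccnd3, quantile normalization -0.01 for E2f5, and cyclic loess and centring -0.03 and -0.02 for Cdkn2c. The ratios of Ccnd3, the second Cdkn1b cluster and E2f5 also changed sign, at -0.04, -0.02 and -0.02, without WT replicate 1 and Dgcr8 KO replicate 2. Requiring 1.5-fold left 4 member clusters called in Dgcr8 KO, 4 in Dicer KO and 0 between the mutants (9 had an unadjusted limma p under 0.05 there, without the fold limit), and 2083, 2499 and 1138 transcripts. At an adjusted p under 0.01, 5 members and 5618 transcripts were called in Dgcr8 KO, and 3 members and 3393 transcripts between the mutants. SAM at a false discovery rate of 5% called 5 members and 4868 transcripts in Dgcr8 KO, without Ccnd1, both Cdkn1b clusters and E2f5. Leaving out 1 array at a time gave 6 to 9, 7 to 7 and 3 to 6 members, and 6587 to 7894, 7165 to 8451 and 4186 to 6567 transcripts. The lowest count of 3 came without Dicer KO replicate 2 or replicate 3. With neither WT replicate 1 nor Dgcr8 KO replicate 2, a choice made after seeing the data, the counts were 6, 7 and 5 members, and 8352, 8521 and 7542 transcripts. Centring each array on its median gave 1 higher and 4 lower members between the mutants, against 3 and 3, and 1787 higher and 3763 lower transcripts, against 2574 and 3083. All rows of the table gave 2 higher and 2 lower members there, and 2679 and 3343 transcripts. The replicate number as a block gave 8, 7 and 6 members and 7539, 8543 and 5660 transcripts called. Of the members, only the second Cdkn1b cluster lost its call in Dgcr8 KO (limma adjusted p = 0.055). Whether the numbers pair the samples is not known. The cause of these shifts was not tested. Dim clusters such as Cdkn2c, and clusters with identical values on all arrays of a genotype, limit what can be seen.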

Other observations

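For the members called in both mutants, the clusters whose levels ran most alike over the 9 arrays were found by the root mean square distance between mean-centred log2 values. For Ccnd2 these were Ccdc141 (0.123) and Sfrp1 (0.144), and for Ccne1 they were Kcnk1 (0.0469) and Dhcr7 (0.0478). Ccne2 was nearest to Wdr47 (0.0555) and Scaper (0.0567), and the first Cdkn1b cluster to Ppp1r12b (0.0711) and Wwp2 (0.0726). That Cdkn1b cluster had a range of 0.37 itself, so clusters with changes as small as its own were not candidates. Rb1 was nearest to Add1 (0.0482) and Tbc1d8 (0.0567), and Rbl1 to Dcaf6 (0.038) and Tmem64 (0.0409). These were the nearest of 4083 candidate clusters, and a near pattern over 9 arrays of 3 genotypes is a description of these values.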
